A study of Mus musculus with 22 samples.

Results

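The 10 genes described here belong to the BCL2 family, the proteins that set whether a cell opens the outer membrane of its mitochondria and dies. They are the pro-survival genes Bcl2, Bcl2l1 (BCL-XL) and Mcl1, the BH3-only genes Bcl2l11 (BIM), Bbc3 (PUMA), Pmaip1 (NOXA), Bid and Bad, and the effector genes Bax and Bak1. They were taken by gene symbol, and by Ensembl identifier in the count table. All 10 were found among 46603 genes in that table, and all 10 were among the 21183 genes that passed the filter on low counts. The lowest count of any of them in a library was 565 and the highest 55442.

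Effectors form the pores that release cytochrome c, pro-survival proteins hold the effectors and the BH3-only proteins in check, and BH3-only proteins carry death signals to both. In T cells BCL2 and MCL1 are known for keeping resting cells alive, and BCL-XL is known as a protein that activated cells make. BIM is known for the removal of T cells when a response ends, and PUMA and NOXA are known as targets of p53.

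RNA was measured by bulk sequencing of poly(A) RNA in 22 libraries of CD8+ T cells from mice, a class of T cells that reads peptide held on MHC class I. Spleen and lymph nodes supplied the cells, which were enriched by taking other cells out with magnetic beads and were sequenced naive or after 24 h or 48 h with plate-bound antibody to CD3 and soluble antibody to CD28. KI mice (3) and wt mice (3) belong to the line named Tcaim KI Cd4Cre, and KO mice (2) to the line named Tcaim KO Cd4Cre. The labels name the genotype hocre in KI and KO mice and wtcre in wt mice. The Cd4 promoter that drives this Cre acts in developing T cells and so is not restricted to CD8+ cells. Each mouse gave 1 library at each time of its genotype, KI and wt at all 3 times and KO naive and at 48 h. KO cells at 24 h and wt mice of the KO line were not analysed here. The labels place 1 KI and 1 wt mouse in each of experiments 1, 3 and 5 and 1 KO mouse in each of experiments 1 and 5, and these numbers name the replicates below. KI and wt mice were male in experiments 1 and 3 and female in experiment 5, and both KO mice were female. The labels used here give no age.

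Library totals ran from 62551905 to 93489115 counts, and the mitochondrial share from 1.72% to 3.51%. Tcaim was higher in KI than in wt cells by 3.25 (naive), 4.50 (24 h) and 4.58 (48 h) on the log2 scale, with adjusted p from 2.55e-10 to 3.62e-08 in edgeR's quasi-likelihood test. The libraries labelled KO did not have less Tcaim that passed the test: the log2 difference from wt was 0.21 naive (adjusted p = 1) and -0.19 at 48 h (adjusted p = 0.84), so the deletion could not be checked from these counts. All 8 markers of CD8+ T cells were above 1 CPM (counts scaled to library size) in every library, and their sum was 4741 to 6463 CPM naive and 2985 to 3936 CPM at 48 h. Summed markers of B cells, myeloid cells and NK cells were lower after stimulation. For 4 dendritic cell markers the sum was 3.11 to 12.4 CPM naive and 7.29 to 10.8 CPM at 48 h. For 3 CD4+ T cell markers it was 38.3 to 283 CPM naive and 30.3 to 188 CPM at 48 h. From naive to 48 h the summed level went from 133 to 1256 CPM to 33.1 to 204 CPM for 5 B cell markers, from 113 to 311 to 43.2 to 66.6 CPM for 6 myeloid markers and from 16.2 to 113 to 0.035 to 1.2 CPM for 3 NK cell markers. At 48 h all 5 B cell, 2 myeloid and 0 NK cell markers were above 1 CPM in every library, and no marker of these 3 lists was at 0 in all of them. The part of these cells in the changes over time was not tested. The library labelled KO naive replicate 1 had the 1256 CPM of B cell markers, against 133 to 429 CPM in the other naive libraries, and its 3 CD4+ T cell markers summed to 283 CPM. Those CD4+ markers summed to 188 CPM in the library labelled KO at 48 h replicate 1 and to 30.3 to 91.6 CPM in every library from another mouse. That 48 h library also lay at 92.0 on the second principal component, with wt 48 h replicate 3 next at 40.3. In bulk RNA, fewer cells of a type and less RNA per cell cannot be told apart, and gene counts do not separate isoforms such as the long and short forms of Bcl2l1 and Mcl1.

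Start sites of 9 of the 10 genes were read from RefSeq on GRCm38.p6, 15 sites in all, each with the 250 bases before it. Pmaip1 was left out, so the counts over sites below do not cover it. The 4 printed here belong to genes whose levels the comparisons turn on: Bcl2l11 (chr2:128125788-128126037, plus strand), Bbc3 (chr7:16310011-16310260, plus strand), Bax (chr7:45466899-45467148, minus strand) and Bcl2l1 (chr2:152831729-152831978, minus strand). Each is 5′ to 3′ on the strand of its gene. Capitals mark a match to 1 of 4 motifs searched on both strands, TTCNNNGAA (STAT type), CACGTG (an E-box), GTAAACA (FOXO type) and TGACTCA (AP-1 type). All but the Bbc3 window end at the gene start in the annotation. The Bbc3 window precedes a RefSeq start inside the gene (chr7:16308393-16318205).
Bcl2l11: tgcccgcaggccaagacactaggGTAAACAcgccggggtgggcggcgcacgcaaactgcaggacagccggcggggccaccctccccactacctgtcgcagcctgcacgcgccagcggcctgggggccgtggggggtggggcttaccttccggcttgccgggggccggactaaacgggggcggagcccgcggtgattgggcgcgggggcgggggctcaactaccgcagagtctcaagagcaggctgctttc
Bbc3: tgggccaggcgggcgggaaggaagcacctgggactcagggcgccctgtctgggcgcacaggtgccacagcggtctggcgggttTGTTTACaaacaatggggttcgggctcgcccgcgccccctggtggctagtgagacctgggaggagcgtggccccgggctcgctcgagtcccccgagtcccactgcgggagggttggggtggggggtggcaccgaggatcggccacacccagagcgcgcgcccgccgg
Bax: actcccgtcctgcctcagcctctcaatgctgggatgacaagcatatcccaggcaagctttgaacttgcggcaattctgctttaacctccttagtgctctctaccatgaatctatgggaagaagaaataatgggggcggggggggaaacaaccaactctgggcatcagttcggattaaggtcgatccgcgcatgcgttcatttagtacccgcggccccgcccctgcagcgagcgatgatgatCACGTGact
Bcl2l1: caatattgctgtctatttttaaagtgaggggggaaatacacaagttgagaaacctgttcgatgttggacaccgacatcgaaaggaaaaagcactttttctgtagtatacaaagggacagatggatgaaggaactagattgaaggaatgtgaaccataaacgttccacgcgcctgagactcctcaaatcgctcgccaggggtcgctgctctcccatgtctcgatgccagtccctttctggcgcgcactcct
The Bcl2l11 window held a FOXO-type match on the printed strand and the Bbc3 window one on the other strand, and these were the only 2 of the 15 sites with one. Of 32851 RefSeq windows of the same length, 3.17% held that motif. An E-box stood close to the Bax start and in 1 further Bbc3 window, 2 of 15 sites against 6.02% of all windows. No site held a STAT-type or AP-1-type match, against 7.02% and 4.46% of all windows. None of the 4 motifs was in the printed Bcl2l1 window, which says only that these letters are not in it. The GC box GGGCGG was in 10 of the 15 windows and in 32.7% of all, and CCAAT was in 4 of the 15 and 33.9% of all. A match is a description of letters and not of a bound site.

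Levels are compared between genes as the deposited FPKM, fragments scaled to gene length and library size, and all tests were run on the counts. In naive wt cells Mcl1 was the highest of the 10 genes at 211 ± 13 FPKM (SD, n = 3) and Bcl2l1 the lowest at 3.23 ± 0.37 FPKM. Bax had 67.7 ± 3.7 FPKM, Bcl2 27.5 ± 1.7 FPKM and Bak1 20.8 ± 1.7 FPKM, and the other 5 genes lay between 6.03 and 13.7 FPKM. At 48 h in wt cells Bax was highest in group means at 202 ± 84 FPKM, ahead of Mcl1 at 120 ± 35 FPKM, and their ranges overlapped. Bcl2l1 had reached 35.1 ± 8.7 FPKM, next to Bak1 at 40.7 ± 3.0 FPKM, and Bad was now lowest at 6.63 ± 1.2 FPKM. The ratio of the highest to the lowest group mean over all 8 groups was largest for Bcl2l1, at 10.9, and lay between 1.37 (Bad) and 3.31 (Bbc3) for the other 9. Within each gene most groups that were neighbours in the order of means had overlapping ranges, 5 to 7 of 7 neighbouring pairs.

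**Figure D1:**
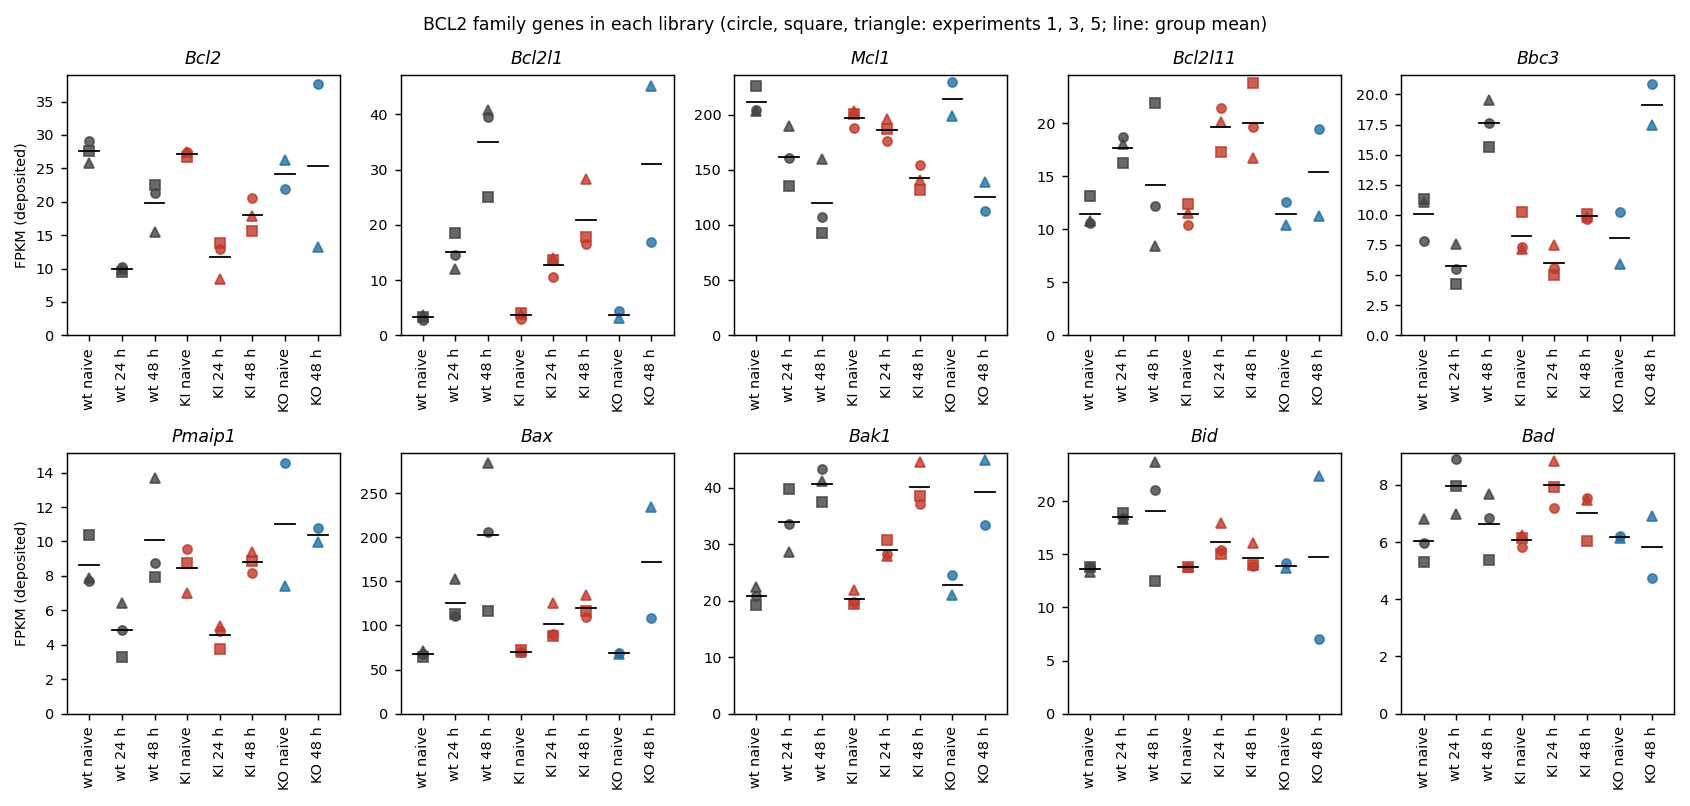
Deposited FPKM of each of the 10 genes (vertical axes, linear, from 0) in the 8 groups, with 1 symbol per library shaped by experiment and a line at the group mean. Bcl2l1 runs from about 3 FPKM naive to means of 20.8 to 35.1 FPKM at 48 h, while Bbc3 at 48 h lies between 9.67 and 10.1 FPKM in KI and between 15.6 and 19.5 FPKM in wt.

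The first comparison asked how the family responded to stimulation in wt cells. At 24 h against naive, 5 of the 10 genes rose and 3 fell (called at an adjusted p under 0.05), where 26.3% of all tested genes were called higher and 22% lower. At 48 h against naive, 4 rose and 1 fell, against 29.6% and 26.8% of all genes. From 24 h to 48 h, 4 rose and 0 fell, against 4.06% and 3.38%. The median log2 change of the 10 genes was 0.51 at 24 h and 0.48 at 48 h, and that of all genes was -0.05 and -0.04. All 32 changes of these genes called over time, in wt, KI and the libraries labelled KO, had 1 direction in every experiment. That adds no support, because the changes were called from these same libraries, and the share among all called genes was not counted.

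Among the pro-survival genes, Bcl2l1 (chr2:152780668-152831728) rose at each step in wt cells. Its FPKM were 2.84, 3.25 and 3.58 in the naive wt libraries, 14.5, 18.6 and 12 at 24 h and 39.5, 25.1 and 40.7 at 48 h, for experiments 1, 3 and 5 in that order. The 3 times did not overlap, and experiment 3 was the highest at 24 h and the lowest at 48 h. The log2 change was 2.30 ± 0.31 (SE) at 24 h and 3.53 ± 0.32 at 48 h, an 11.5-fold rise, with adjusted p of 6.94e-06 and 4.73e-08 in edgeR's quasi-likelihood test. From 24 h to 48 h it was 1.23 ± 0.30 (adjusted p = 0.0161). That last call was lost without wt 24 h replicate 1 or 5 or wt 48 h replicate 1 or 5, with adjusted p up to 0.0803.

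Bcl2 (chr1:106538178-106714274) fell at 24 h and rose again after it in wt cells. The naive wt libraries had 29.1, 27.7 and 25.8 FPKM, the 24 h libraries 10.3, 9.51 and 9.93 and the 48 h libraries 21.3, 22.5 and 15.5. The 24 h libraries were below all others and close together. The fall at 24 h was by 1.39 ± 0.26 on the log2 scale (adjusted p = 0.00025) and the rise from 24 h to 48 h was 1.00 ± 0.26 (adjusted p = 0.0238). The rise was lost without any 1 of the wt 24 h libraries or without wt 48 h replicate 1 or 3 (adjusted p up to 0.0853), with log2 values from 0.89 to 1.14 over all 6 omissions. At 48 h against naive the log2 difference was -0.39 ± 0.26 (adjusted p = 0.2). Exons of Bcl2 share 558 bases with the antisense gene D630008O14Rik, so without strand in the counting reads of this stretch could belong to either.

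Mcl1 (chr3:95658788-95663176), whose protein turns over fast, fell at 48 h in wt cells. Its FPKM were 204, 226 and 204 naive, 160, 135 and 190 at 24 h and 108, 92.9 and 159 at 48 h. All 24 h and 48 h libraries were below all naive ones, while 24 h and 48 h overlapped through experiment 5. The log2 difference was -0.29 ± 0.16 at 24 h, which did not pass (adjusted p = 0.145), and -0.73 ± 0.16 at 48 h (adjusted p = 0.00103). The difference from 24 h to 48 h was -0.43 (adjusted p = 0.123), and without wt 48 h replicate 5 it was -0.69 (adjusted p = 0.00918).

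The make-up of the transcripts of Mcl1, Bcl2 and Bcl2l1 can be put as shares of their summed FPKM, given as a description. Other pro-survival genes are not in that sum, such as Bcl2a1b and Bcl2a1d at 118 and 40.9 FPKM in wt cells at 48 h. Mcl1 held 86.4% to 88.0% in naive wt libraries and 63.9% to 73.9% at 48 h. Bcl2l1 held 1.21% to 1.54% naive, 5.66% to 11.4% at 24 h and 17.8% to 23.5% at 48 h. Bcl2 held 10.8% to 12.4%, then 4.69% to 5.82%, then 7.18% to 16%. In wt cells the share of Bcl2l1 thus stood apart at each of the 3 times, and that of Bcl2 was lowest at 24 h. The ratio of Bcl2l1 to Bcl2 had a median of 0.118 naive, 1.41 at 24 h and 1.86 at 48 h.

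**Figure D2:**
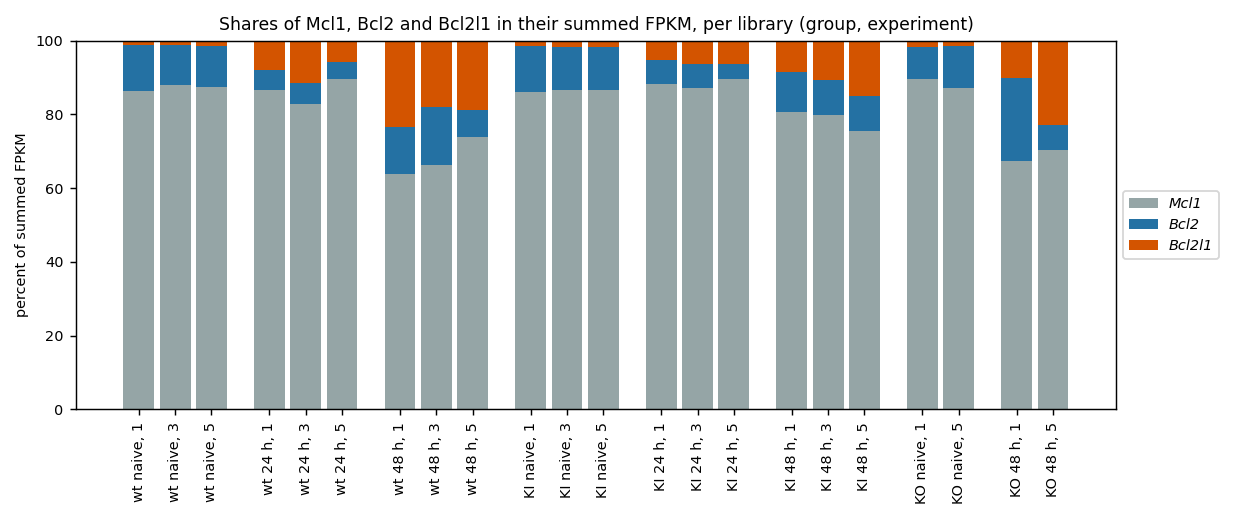
Stacked percentages of the summed FPKM of Mcl1, Bcl2 and Bcl2l1 in each of the 22 libraries, labelled by group and experiment. The Bcl2l1 segment is under 2% in every naive library and is 17.8% to 23.5% in wt and 8.62% to 15.1% in KI libraries at 48 h.

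Of the BH3-only genes, Bbc3 (chr7:16308393-16318205) fell and then rose. Its wt libraries had 7.84, 11.3 and 11 FPKM naive, 5.49, 4.29 and 7.58 at 24 h, then 17.7, 15.6 and 19.5 after 48 h. In wt cells 48 h stood above the other times in all 3 mice, and 24 h and naive libraries nearly met through 7.58 and 7.84 FPKM (on the CPM scale they overlapped). The log2 change was -0.71 ± 0.23 at 24 h (adjusted p = 0.0178), 0.89 ± 0.23 at 48 h (adjusted p = 0.00314) and 1.6 ± 0.24 from 24 h to 48 h (adjusted p = 0.000654). The fall at 24 h was lost without wt naive replicate 3 or 5 or wt 24 h replicate 1 or 3, with adjusted p up to 0.101. Both later calls held in all 17 alternatives run, with adjusted p from 4.42e-09 to 0.0263 for the rise after 24 h.

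Group means of Pmaip1 had the same order of times in wt cells. Its wt FPKM were 7.71, 10.4 and 7.90 naive, 4.87, 3.28 and 6.44 at 24 h and 8.73, 7.94 and 13.7 at 48 h. The 24 h libraries were below all others, and naive and 48 h libraries overlapped. The log2 change was -0.74 ± 0.26 at 24 h (adjusted p = 0.0246) and 1.05 ± 0.26 from 24 h to 48 h (adjusted p = 0.0185). Neither call held throughout: the first was lost without wt 24 h replicate 1 or 3 or wt naive replicate 3 (adjusted p up to 0.134). The second was lost without wt 24 h replicate 1 or 3 or wt 48 h replicate 5 (adjusted p up to 0.0908) and when these groups were fitted without the others (adjusted p = 0.112).

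Bcl2l11 (chr2:128126038-128162547) rose at 24 h in wt cells and was spread widely at 48 h. Its wt libraries had 10.6, 13.1 and 10.8 FPKM naive, 18.7, 16.2 and 18.1 at 24 h and 12.2, 21.9 and 8.42 at 48 h. All 24 h libraries were above all naive ones, and at 48 h experiment 3 was above all of these and experiment 5 below all of them. The log2 change at 24 h was 0.71 ± 0.25 (adjusted p = 0.0266), a call that was lost without wt naive or wt 24 h replicate 1 or 5 (adjusted p up to 0.0818) and with upper-quartile scaling (adjusted p = 0.0982). At 48 h the log2 difference was 0.39 ± 0.25 (adjusted p = 0.19), and it depended on single libraries: it was -0.070 without wt 48 h replicate 3 and 0.66 without replicate 5 (adjusted p = 0.021).

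Bid (chr6:120891930-120916853), which is cleaved by caspase 8, and Bad (chr19:6941861-6951898), which is held inactive by phosphorylation, varied least in their group means. Bid was listed at 13.3 to 13.9 FPKM in naive wt libraries, 18.3 to 18.9 at 24 h and 12.5 to 23.7 at 48 h. Its log2 difference was 0.53 ± 0.27 after 24 h (adjusted p = 0.115) and, after 48 h, 0.57 ± 0.27 (adjusted p = 0.0808). The value at 48 h was 0.80 without wt 48 h replicate 3, the library with 12.5 FPKM (adjusted p = 0.0187). Bad was 5.30 to 6.80 FPKM naive, 6.99 to 8.91 at 24 h and 5.36 to 7.68 at 48 h, and only the rise at 24 h was called (log2 0.48 ± 0.17, adjusted p = 0.0271). This call was lost without wt naive or wt 24 h replicate 1 or 3 (adjusted p up to 0.114), and with library size alone, upper-quartile scaling or limma (adjusted p up to 0.134). Exons of Bid overlap Bcl2l13 by 628 bases and exons of Bad overlap Gpr137 by 524 bases on the opposite strand, so counts of both are uncertain.

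Both effector genes rose. Bax (chr7:45461697-45466898) had 67.8, 64.0 and 71.3 FPKM in naive wt libraries, 111, 114 and 153 at 24 h and 206, 116 and 285 at 48 h. Every stimulated library was above every naive one, and experiment 3 stayed at its 24 h level at 48 h. The log2 change was 0.98 ± 0.27 after 24 h (adjusted p = 0.00551) and, after 48 h, 1.67 ± 0.27 (adjusted p = 4.73e-05). Bak1 (chr17:27019810-27029009) had 20.8, 19.2 and 22.5 FPKM naive, 33.6, 39.8 and 28.6 at 24 h and 43.4, 37.5 and 41.2 at 48 h. Its log2 change was 0.79 ± 0.13 at 24 h and 1.05 ± 0.13 at 48 h, with adjusted p of 7.91e-05 and 2.43e-06. An exon of Bax shares 192 bases with Gm45808 on the same strand, and Bak1 overlaps Ggnbp1 on the opposite strand.

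Experiment 3 at 48 h differed from the other wt mice in several of these genes at once. Among the wt 48 h libraries it had the lowest Bcl2l1, Bax, Bid, Bak1, Mcl1, Pmaip1, Bbc3 and Bad and the highest Bcl2l11 and Bcl2. It is also the wt library that lay farthest out on the second principal component, and the part of that in these values was not tested.

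In KI cells, the question was whether the same genes moved. At 24 h, 4 of the 10 genes rose and 2 fell, against 22.9% of all genes called higher and 15.8% lower. At 48 h, 4 rose and 0 fell, against 26.6% and 22.1%. From 24 h to 48 h, edgeR called 0 of the 10, against 1.72% of all genes called higher and 0.954% lower. For that last step 6 of the 10 had an unadjusted p under 0.05, as did 3286 of the 21183 tested genes. DESeq2 called 3 of the 10 and 1256 genes in all. With limma on the deposited variance-stabilised values these numbers were 2 and 653.

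Bcl2l1 rose in KI cells too. The KI libraries had 3.00, 3.95 and 3.92 FPKM naive, 10.5, 13.6 and 14.1 at 24 h and 16.5, 17.7 and 28.2 at 48 h. The times did not overlap. The log2 change was 1.93 ± 0.30 at 24 h and 2.61 ± 0.31 at 48 h (adjusted p = 1.77e-06), a 6.12-fold rise. Its share of the summed FPKM of Mcl1, Bcl2 and Bcl2l1 was 8.62% to 15.1% at 48 h, below each of the wt libraries. The share was not tested and also depends on Mcl1 and Bcl2. FPKM of Bcl2l1 itself overlapped between KI (up to 28.2) and wt (down to 25.1) at 48 h. The median ratio of Bcl2l1 to Bcl2 was 1.13.

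Bcl2 in KI cells was 26.6 to 27.5 FPKM naive, 8.41 to 13.8 at 24 h and 15.6 to 20.5 at 48 h, and its fall at 24 h was by 1.10 ± 0.26 on the log2 scale (adjusted p = 0.00242). Mcl1 in KI cells was 188 to 203 FPKM naive and 131 to 154 at 48 h, with no overlap, and its log2 difference was -0.38 ± 0.16 (adjusted p = 0.0624). This difference passed with the experiment or the mouse as a replicate block (adjusted p = 0.0421 and 0.0476) and with DESeq2 (adjusted p = 0.0262), in all in 9 of 17 alternatives.

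Bcl2l11 rose in KI cells at both times. The KI libraries had 10.4, 12.4 and 11.5 FPKM naive, 21.4, 17.3 and 20.1 at 24 h and 19.7, 23.8 and 16.7 at 48 h, so all stimulated libraries were above all naive ones. The log2 change was 0.90 ± 0.25 at each time, with adjusted p of 0.00883 at 24 h and 0.00669 at 48 h. Both calls held in all 17 alternatives.

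Bbc3 in KI cells was 7.36, 10.2 and 7.13 FPKM naive, 5.62, 4.99 and 7.50 at 24 h and 9.67, 10.1 and 9.84 at 48 h. The naive range overlapped both later ones, and against naive the log2 difference was -0.33 at 24 h and 0.35 at 48 h (adjusted p = 0.276 and 0.221). From 24 h to 48 h the libraries did not overlap, and the log2 difference was 0.68 ± 0.23 (unadjusted p = 0.00878, adjusted p = 0.135). That step did not pass in edgeR's quasi-likelihood test over all 8 groups, and it passed with DESeq2 (adjusted p = 0.0458) and with the KI groups of those times alone (adjusted p = 0.0389). Pmaip1 fell at 24 h by 0.78 ± 0.26 on the log2 scale (adjusted p = 0.0237), from 7.03 to 9.59 FPKM naive to 3.77 to 5.08. That call was lost without KI 24 h replicate 3 or KI naive replicate 1 or 3 (adjusted p up to 0.101). Bad rose at 24 h by 0.52 ± 0.17 (adjusted p = 0.0241), which was lost without KI 24 h replicate 5 or KI naive replicate 1 or 3 (adjusted p up to 0.0942) and with limma, median-of-ratios or upper-quartile factors (adjusted p up to 0.104). Bid had log2 differences of 0.34 and 0.18, which did not pass.

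Bax in KI cells was 69.5, 71.8 and 69.9 FPKM naive, 89.9, 88.2 and 126 at 24 h and 110, 116 and 135 at 48 h. The naive libraries were below all others. The log2 difference was 0.65 ± 0.27 at 24 h (adjusted p = 0.0636, or 0.0283 and 0.0277 with the experiment or the mouse as a replicate block) and the rise at 48 h was 0.87 ± 0.27 (adjusted p = 0.0124). Bak1 rose by 0.62 ± 0.13 at 24 h and 1.07 ± 0.13 at 48 h (adjusted p = 3.04e-06), from 19.5 to 21.9 FPKM naive to 37.1 to 44.6 at 48 h.

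**Figure D3:**
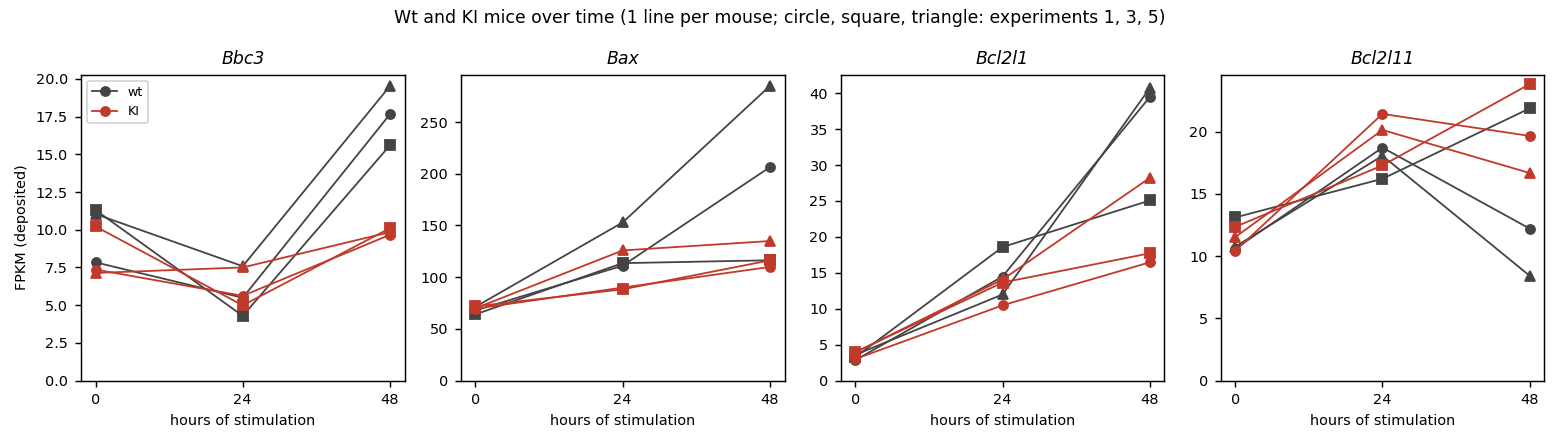
FPKM of Bbc3, Bax, Bcl2l1 and Bcl2l11 (linear axes from 0) against hours of stimulation, with 1 line per wt or KI mouse. At 48 h the wt mouse lies above the KI mouse of its experiment for Bbc3 and Bcl2l1 and below it for Bcl2l11, and in experiment 3 both have 116 FPKM of Bax.

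The genotypes were then compared at each time. Between KI and wt cells edgeR called 0 of the 10 genes naive, at 24 h and at 48 h, where 0.0803%, 0.00472% and 4.20% of all tested genes were called in either direction. Naive and at 24 h none had an unadjusted p under 0.05, and DESeq2 and limma called 0 as well. At 48 h, 3 had an unadjusted p under 0.05, as did 3801 of the 21183 tested genes. DESeq2 and limma called 1 of the 10, Bbc3, and 1714 and 1029 genes in all. The summed B cell markers were also higher in KI than in wt cells in each experiment at 48 h, at 113, 103 and 204 CPM against 44.6, 60.7 and 132 CPM, and their part in the genotype differences was not tested. The naive log2 differences lay between -0.28 and 0.18 and those at 24 h between -0.27 and 0.28, with 95% intervals that stayed between -0.83 and 0.81.

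For Bbc3 the KI and wt libraries did not overlap at 48 h. The share of all genes with such a separation was not counted, so this does not set Bbc3 apart. The KI mice had 9.67, 10.1 and 9.84 FPKM and the wt mice 17.7, 15.6 and 19.5 FPKM. The log2 difference was -0.82 ± 0.23 (95% interval -1.31 to -0.33), or 0.566-fold, with an unadjusted p of 0.00227 and an adjusted p of 0.0524 in edgeR's quasi-likelihood test. It did not pass the threshold and was near it: adjusted p was 0.00896 with DESeq2, 0.0436 with median-of-ratios factors, 0.0356 with limma and 0.0461 over protein-coding genes alone. Without wt 48 h replicate 3 it was 0.0403. These were the 5 of 16 alternatives in which Bbc3 passed. In the other 11 it did not, the fit with the experiment as a replicate block among them. Over all 16 the adjusted p ran from 0.00896 to 0.186. Within experiments 1, 3 and 5 the log2 difference was -0.84, -0.64 and -0.96.

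Bcl2l1 was lower in KI than in wt cells in all 3 experiments, and Bax in experiments 1 and 5 and nearly level in experiment 3, without passing the test. For Bcl2l1 the log2 difference at 48 h was -0.74 ± 0.29 (95% interval -1.35 to -0.13, adjusted p = 0.179), and within experiments it was -1.24, -0.51 and -0.50. For Bax it was -0.74 ± 0.27 (95% interval -1.30 to -0.18, adjusted p = 0.138), and within experiments -0.88, -0.01 and -1.05. Without wt 48 h replicate 3 the Bax difference was -1.01 (adjusted p = 0.0173). The groups overlapped for Bax through that library and for Bcl2l1 through it and KI replicate 5.

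Bcl2l11 was higher in KI cells in all 3 experiments at 48 h, by 0.71, 0.11 and 1.01 on the log2 scale. The log2 difference was 0.51 ± 0.25 (95% interval -0.02 to 1.04, adjusted p = 0.299), and it was 0.98 (adjusted p = 0.0104) without wt 48 h replicate 3 and 0.24 without replicate 5. Mcl1 had 0.26 ± 0.16 and Bid -0.37 ± 0.27, neither of which passed. For Bak1 the log2 difference was -0.01 with a 95% interval of -0.28 to 0.27, the narrowest of the 10. The intervals of Bcl2, Pmaip1 and Bad covered 0 as well.

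**Figure D4:**
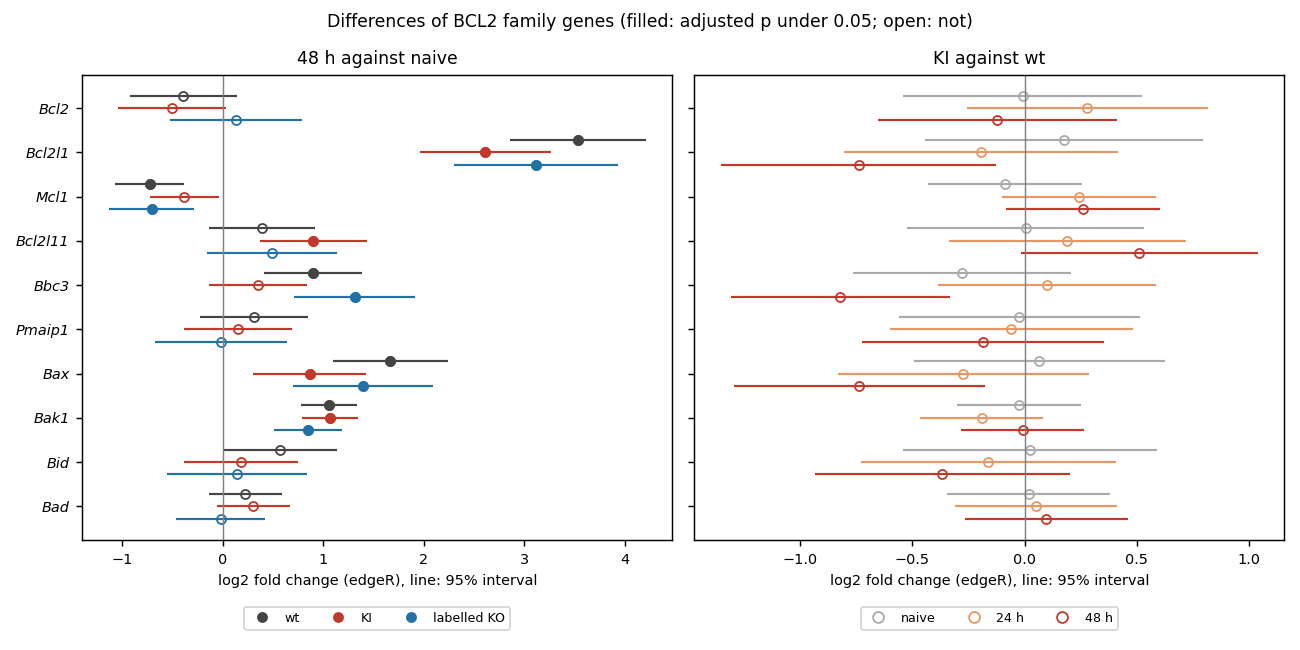
Log2 fold changes with 95% intervals from edgeR for the 10 genes, on the left at 48 h against naive in wt, KI and the libraries labelled KO, and on the right for KI against wt at each time. Filled symbols passed an adjusted p under 0.05; on the right none did, and Bbc3, Bcl2l1 and Bax at 48 h have intervals below 0.

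Whether the response itself differed between KI and wt was tested as an interaction. At 24 h edgeR called 0 of the 10, and 0% of all genes, where 692 genes had an unadjusted p under 0.05 and DESeq2 called 4. At 48 h edgeR called 0 of the 10, against 0.387% of all genes. DESeq2 and limma also called 0 of the 10 in both. Over all genes, 2064 had an unadjusted p under 0.05 at 48 h. Of the 10, Bcl2l1 (-0.92 ± 0.42, adjusted p = 0.482) and Bax (-0.80 ± 0.38, adjusted p = 0.503) were among them. For Bbc3 it was -0.54 ± 0.33 (adjusted p = 0.645) from naive to 48 h, and -0.92 ± 0.33 (adjusted p = 0.683, unadjusted 0.0114) from 24 h to 48 h, a test added after the values were seen. So the rise of Bbc3 that was called in wt and not in KI cells was not shown to differ between them.

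In the libraries labelled KO, 4 of the 10 genes rose and 1 fell at 48 h against naive, where 23.7% of all genes were called higher and 20.4% lower. Bcl2l1 rose by 3.12 ± 0.39 on the log2 scale, Bax by 1.39 ± 0.33, Bbc3 by 1.31 ± 0.29 and Bak1 by 0.85 ± 0.16, and Mcl1 fell by 0.71 ± 0.20, with adjusted p from 4.24e-06 to 0.00823. These tests take the spread from all 8 groups. In a fit of these 4 libraries alone 1 of the 5 calls, Bcl2l1, was kept (adjusted p = 0.0467). The Bax call was lost without KO 48 h replicate 5 (log2 0.72, adjusted p = 0.0849), and the Mcl1 call without KO 48 h or KO naive replicate 1 (adjusted p up to 0.0695).

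The 48 h libraries labelled KO differed widely from each other. Replicates 1 and 5 had 37.6 and 13.2 FPKM of Bcl2, 16.9 and 45.1 of Bcl2l1, 109 and 235 of Bax and 6.99 and 22.4 of Bid. Replicate 1 was thus the highest of all 22 libraries for Bcl2 and the lowest of all for Bid, while replicate 5 lay within the range of wt 48 h libraries for Bax and Bid, below it for Bcl2 and above it for Bcl2l1. Bbc3 differed less, with 20.8 and 17.5 FPKM. Replicate 1 is the library that stood apart on the second principal component and carried more CD4+ T cell marker RNA, and the part of either in these values was not tested.

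Against wt cells, edgeR called 0 of the 10 genes in the naive libraries labelled KO and 0 at 48 h, where 0.0236% and 0.0283% of all genes were called. No gene of the 10 had an unadjusted p under 0.05 in either comparison, and DESeq2 and limma called 0. KO and wt mice belong to separate lines, and in experiment 1 the KO mouse was female and the wt mouse male, so genotype, line and sex cannot be told apart there. Naive log2 differences lay between -0.31 and 0.35 and those at 48 h between -0.39 and 0.35. Without KO 48 h replicate 5, which leaves replicate 1 alone on that side and assumes that it varies as the other groups do, 3 were called at 48 h. They were Bcl2 (0.91, adjusted p = 0.00644), Bid (-1.47, adjusted p = 0.000638) and Bcl2l1 (-1.08, adjusted p = 0.0295). In the interaction with 48 h edgeR called 0 of the 10, and 0% of all genes, where 496 genes had an unadjusted p under 0.05 and DESeq2 and limma called 0. Without KO 48 h replicate 5, Bcl2 (1.09, adjusted p = 0.0228) and Bid (-1.51, adjusted p = 0.0065) were called there.

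The genes of the family differed in how alike their courses were. Likeness was the mean absolute difference between group means of log2 CPM, each centred on its mean over the 8 groups, and is a description with no test. Bid and Bad were the closest pair of the 10 at 0.0895, Bax and Bak1 followed at 0.168, and Bcl2 and Bcl2l1 were the farthest apart at 1.55. Genes that change little lie close by this measure. The mean absolute centred level was 0.201 for Bid, 0.184 for Bad and 1.24 for Bcl2l1. Of the other tested genes, the nearest to Bcl2 was its antisense neighbour D630008O14Rik at 0.0815, then Fam84b and Btg3. Nearest to Bcl2l1 were Traip, Plk4 and Gabarapl1 (0.117 to 0.121). Nearest to Bbc3 were Gm34086, Abcb9 and Arl5b (0.115 to 0.135), and to Pmaip1 Rell1, Ehd1 and Ggta1 (0.0484 to 0.122). Nearest to Bax were Igsf8, Thoc6 and Gm26811 (0.0340 to 0.0461), and to Bak1 Gatad1, Gm47314 and Hspa13. Nearest to Mcl1 were Arap1, Trbv13-1 and Rrnad1, to Bcl2l11 Lpxn, AW112010 and Mrps31, to Bid Fmc1, Hgh1 and Cfl1, and to Bad Ndufs7, Babam1 and Mrps34.

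Other genes of the same pathway were read from 5 lists, in wt cells at 48 h against naive, where 29.6% of all genes were called higher and 26.8% lower. Of 13 tested genes in the rest of the BCL2 family, 4 rose and 0 fell, with a median log2 change of 0.87. They included the pro-survival gene copies Bcl2a1d (3.98 ± 0.39) and Bcl2a1b (2.82 ± 0.28) and Bnip3 (2.65 ± 0.49), which is known from low oxygen. Bcl2a1 copies are nearly identical, so reads could be split between them. Bcl2a1b went from 17.7 FPKM naive to 118 FPKM at 48 h in wt cells and from 14.9 to 109 FPKM in KI cells.

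Of 18 genes of the apoptosome, caspases and inhibitors of apoptosis, 9 rose and 1 fell (median log2 change 0.46). Birc5, which also serves in cell division, rose by 5.94 ± 0.39 and Aifm1 by 1.48 ± 0.19, and Casp8 fell by 0.39 ± 0.10. Of 12 genes of the death receptor pathway, 4 rose and 3 fell (median -0.09). Tnf (1.52 ± 0.50), the receptor genes Fas (1.44 ± 0.21) and Tnfrsf10b (1.35 ± 0.19) rose. Cflar, an inhibitor of caspase 8, fell by 1.01 ± 0.14, Tnfsf10 by 0.54 ± 0.13 and Ripk1 by 0.43 ± 0.09.

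Of 11 tested genes of the p53 and FOXO list, 3 rose and 6 fell (median -0.34). The p53 targets Cdkn1a (5.26 ± 0.57), Sesn2 (2.04 ± 0.26) and Ccng1 (1.92 ± 0.19) rose. Klf2, Txnip and Foxo4 fell by 4.73 ± 0.33, 2.67 ± 0.25 and 1.37 ± 0.18. Of 9 genes for turnover of MCL1 and BIM, 3 rose and 3 fell (median -0.16). Cdc20 (4.80 ± 0.34), which also drives mitotic exit, Dynll2 (1.72 ± 0.17) and the MCL1 deubiquitinase gene Usp9x (0.55 ± 0.19) rose. The ubiquitin ligase genes Trim17, Fbxw7 and Huwe1 fell by 1.37 ± 0.41, 0.60 ± 0.12 and 0.58 ± 0.18. Exons of Bcl2a1b, Bnip3, Cdc20, Cdkn1a, Ripk1, Trim17, Txnip and Huwe1 overlap another gene, so their counts are uncertain.

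Between KI and wt cells, 5 of the 63 tested genes of these lists were called, all at 48 h, where 4.20% of all genes were called. The death receptor gene Tnfrsf10b was lower in KI cells, at 8.25 to 9.83 FPKM against 12.1 to 18.3 FPKM (log2 -0.75 ± 0.19, adjusted p = 0.0267). Its ligand gene Tnfsf10 was higher, at 6.89 to 8.45 against 5.11 to 5.68 FPKM (0.54 ± 0.13, adjusted p = 0.0192). The kinase gene Ripk1 was higher, at 18.1 to 19.4 against 11.5 to 14 FPKM (0.59 ± 0.10, adjusted p = 0.00206). The p53 target Ccng1 was lower, at 76.5 to 89.4 against 101 to 168 FPKM (-0.68 ± 0.18, adjusted p = 0.0411), and Klf2 was higher, at 27.4 to 32.9 against 8.48 to 12.5 FPKM (1.58 ± 0.29, adjusted p = 0.00508). KI and wt libraries did not overlap for any of the 5, which adds no support because the 5 were called from these same libraries. No gene of the lists was called in the interactions, or between the libraries labelled KO and wt.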

How the data were processed

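RNA of 22 libraries from 8 mice was measured per gene. Per the submitters' processing notes, the tools were bcl2fastq 2.20.0, TopHat2 2.1.0, Bowtie2 2.2.5, SAMtools 0.1.19, featureCounts and DESeq2 1.6.3, with GRCm38 or mm10 as the build. The library kit was stranded per the labels, and whether counting used strand is not given in the sources used here. The authors deposited whole-number counts for 46603 Ensembl genes, which were tested. The deposited FPKM are normalised counts over 1 length per gene (relative deviation up to 7.59e-14) and serve for levels only. The deposited log2 values are log2 of the count over a library factor, checked to 3.58e-14, and variance-stabilised log2 values, used in an alternative. Columns of other samples numbered 0.

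Genes were kept by filterByExpr (count 10, total 15), scaled by TMM and fitted with 8 group means by edgeR 4.0.16 in R 4.3.3 (14 residual degrees of freedom). The quasi-likelihood F test was adjusted by Benjamini-Hochberg over 21183 genes, with calls at adjusted p under 0.05. Values after ± are SD for FPKM and SE for log2 changes. CPM use TMM totals. The 15 comparisons were activation within genotype, genotype within time and their interactions. Alternatives were DESeq2 1.42.0, limma 3.58.1, 3 other scalings, no filter, protein-coding genes alone, the compared groups alone, a robust fit (added later), replicate blocks, and leaving out each library. Scripts were tested on simulated data.

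The labels name the experiment and mouse, so libraries of 1 number are paired. Deviations from group means correlated across genes with a median r of 0.164 in the 17 pairs of 1 experiment and time (other experiments -0.07) and 0.155 in the 20 pairs of 1 mouse (other mice -0.03), and 9 and 19 of these exceeded 0.1. Replicates are separate mice and none were duplicates (chi-square per degree of freedom 15.4 or more).

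The 10 genes, the 5 lists and the naming rule were chosen with earlier results of these data known. Named are all 10 genes, up to 3 genes called higher and 3 lower per list in wt at 48 h with the largest changes, every list gene called between genotypes, and the 3 genes most like each of the 10 with a mean CPM of at least 1. A result that this rule would name is not reported here. Promoter windows come from RefSeq, and counting error is small at these counts beside the spread between mice.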

Additional observations from a re-analysis of the deposited data

Results flagged for a closer look

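In 5 cases, read from CPM, every experiment moved 1 way in one genotype comparison and the opposite way in another. The search took 9 pairs of comparisons for each of the 10 genes, pairs of activation comparisons included. How often such cases occur over all genes was not counted. The KI minus wt log2 difference of Mcl1 was lower naive and higher at 24 h in all 3 experiments, a shift of 0.33, and that of Bbc3 likewise on the CPM scale, a shift of 0.38. The naive Mcl1 difference in experiment 5 was only -0.0016, which is nearly level. In FPKM, Bbc3 of experiment 5 at 24 h was 7.50 in KI and 7.58 in wt cells, so its sign there depends on the scale. The tests of these shifts, the interactions at 24 h, gave an adjusted p of 1 for both in edgeR's quasi-likelihood test. For Bcl2l1 the difference was higher naive and lower at 48 h in all 3 experiments, a shift of -0.92 (interaction adjusted p = 0.482). For Bbc3 it was higher at 24 h on the CPM scale (in FPKM in experiments 1 and 3 only) and lower at 48 h in all 3, also a shift of -0.92 (adjusted p = 0.683, in a test added after the values were seen). For Bid, the difference between libraries labelled KO and wt was higher naive and lower at 48 h in both experiments with a KO mouse, a shift of -0.43 (adjusted p = 1). None of the 5 shifts passed its test.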

How the results depend on the processing

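Of 32 calls of these genes, 19 held in every alternative run, 13 were lost in at least 1 and 0 changed direction. For KI from 24 h to 48 h (0 called), DESeq2 gave 3, the compared groups alone 4, limma 2, the mouse as replicate block 1 and no filter 1. For KI against wt at 48 h (0 called), DESeq2, median-of-ratios factors, limma and protein-coding genes alone each gave 1, Bbc3. For the libraries labelled KO at 48 h against naive (5 called), the compared groups alone gave 1. Leaving out 1 library gave 4 to 7 for wt at 24 h (8 called), 1 to 5 for wt from 24 h to 48 h (4 called), 0 to 3 for KI against wt at 48 h, 0 to 3 for KO against wt at 48 h and 0 to 2 for the KO interaction. The lowest wt counts came without wt 24 h replicate 1. Paired fits with a replicate block changed no other call than those named: Bax in KI at 24 h, Mcl1 in KI at 48 h and, for the mouse, Pmaip1 in KI after 24 h (adjusted p = 0.042). Of differences that were not called, 9 changed sign when 1 library was left out. For KO against wt the ranges were -0.73 to 0.011 for Bbc3 naive, -0.19 to 0.74 for Pmaip1 naive, -0.59 to 0.91 for Bcl2 and -1.47 to 0.22 for Bid at 48 h. For the KO interaction they were -0.41 to 1.09 (Bcl2), -1.30 to 0.13 (Bcl2l1), -1.51 to 0.18 (Bid) and -0.73 to 0.21 (Pmaip1), and for Bcl2l11 in wt at 48 h -0.070 to 0.66. The cause was not tested. Upper-quartile scaling moved the median log2 change of all genes by -0.17 to -0.22 for stimulated against naive cells and the share of calls that were higher from 52.5% to 41.7% in wt and from 54.6% to 42.9% in KI at 48 h. All genes called in KI against wt at 48 h numbered 889, 1714 with DESeq2 and 109 with the compared groups alone; for KI after 24 h they numbered 567, 1256 with DESeq2 and 1301 with the compared groups alone. For wt after 24 h they numbered 1578, 2465 with DESeq2 and 373 with the compared groups alone, and for KO at 48 h against naive 9326 and 1373 with the compared groups alone. For the KI interaction at 48 h they numbered 82, 360 with DESeq2, 138 with the compared groups alone and 187 with the mouse as replicate block. The other genotype comparisons and the KI interaction at 24 h had 0 to 17 calls, and 0 to 79 under the alternatives that kept all libraries. Uncalled differences under 0.3 on the log2 scale were not followed through the alternatives, a limit set after the values were seen. At 3 mice a group, a difference of 0.92 (Pmaip1 in KI from 24 h to 48 h) did not pass in the main fit and passed in 5 of 17 alternatives. Smaller differences were called elsewhere, such as 0.48 for Bad in wt at 24 h against naive, so 0.92 is not a general limit.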
